A study of Mus musculus with 12 samples.

Results

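The regions described here are truncated copies of LINE-1 (L1), a mouse retrotransposon, that lie outside every interval of the deposited m6A table and still carried reads in m6A libraries of RNA bound to chromatin. A copy was taken where its family was LINE/L1, its length was below 6000 bases, it overlapped 0 of the 74299 deposited intervals and it had a mean of at least 20 reads over 6 libraries. That gave 23077 copies, out of 814942 short L1 copies outside intervals, 836507 L1 loci and 4929385 repeat loci of all kinds. The copies were thus chosen by family, length, position and mean reads. A copy that is high in 1 genotype alone can pass a minimum on the mean of all libraries and then has to differ: 1147 of the copies (4.97%) averaged 20 reads or more in just 1 genotype, 901 of them in KO, 97 in ΔcIDR and 149 in WT. The label truncated rests on length alone, since the tables give neither subfamily nor strand.

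The cells were E14TG2a mouse embryonic stem cells grown with LIF and the inhibitors PD0325901 and CHIR99021. They lacked Alkbh5, an enzyme that removes N6-methyladenosine (m6A) from RNA (KO), carried the Alkbh5 del-cIDR allele, a deletion named for a disordered region of the protein (ΔcIDR), or were wild type (WT). Each genotype had 2 libraries, 6 in all of 12 samples in the series, read as m6A immunoprecipitates because the tables are called normalized m6A matrices. The column names do not say immunoprecipitate or input, KI columns were taken for ΔcIDR because KO and WT are named outright, and both KO columns carry the name KO6, so they may come from 1 line. Separate cultures for the replicates are not mentioned in the labels, and a p-value here measures no more than the spread between these libraries. Input libraries were not analysed here. A difference in m6A, in the amount of RNA and in the number of gene copies therefore cannot be told apart, and neither can fewer cells and less RNA per cell. Embryonic stem cell markers and Alkbh5 itself were not checked, because the tables name no genes.

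Reads in repeats came to between 20922839 and 26267351 per library, and a spike-in RNA with m6A, at 814 to 1870 reads, set the deposited scale. The spike-in shifts every locus of a library together, so each library was centred on its median over the 234605 repeat loci of all families with a mean of at least 20 reads. Centring takes out any change shared by all these loci, so centred values cannot show a global change in m6A. They show changes relative to other repeats. Values per library are given below as scaled reads, the reads recovered from the deposited signal times 1 factor per library from that centring. Changes are differences of centred log2(signal + 2), tested with limma over all 234605 loci, and a copy was called at a Benjamini-Hochberg adjusted p of 0.05.

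L1 is an autonomous retrotransposon of mammals. A full-length copy holds a promoter, reading frames for an RNA-binding protein and a reverse transcriptase, and a short tail, and most genomic copies lack the 5′ end because reverse transcription stopped early. Such truncated copies usually have no promoter of their own and are often transcribed as part of a longer RNA, such as an intron. In mouse embryonic stem cells, L1 RNA remains on chromatin and is known to carry m6A, which METTL3 and METTL14 write and the demethylases FTO and ALKBH5 can remove.

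The copies were short and thinly covered. Their median length was 413 bases, between 33 and 5998, and 13800 copies (59.8%) were below 500 bases while 210 reached 4000 bases. The median copy had a mean of 39 reads, the highest 1438, and 106 copies had 500 or more. Just inside the minimum, 191 copies had a mean of exactly 20 reads and 1007 had less than 21, and 1041 short L1 copies outside intervals had a mean of at least 19 and below 20. On either side of the minimum the order of the genotypes varied. A copy just inside it on chromosome 1 (11495914 to 11496862) had 17.0 and 9.40 scaled reads in KO, 22.2 and 9.72 in ΔcIDR and 34.7 and 27.6 in WT. A copy just outside (64634003 to 64635382) had 26.4 and 28.2 in KO, 16.6 and 15.1 in ΔcIDR and 11.2 and 18.4 in WT.

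A small part of the short L1 copies outside intervals carried most of their reads. The 23077 copies were 2.83% of them and held 71.0% of their reads, while 70.9% had 0 reads in all 6 libraries. Per kilobase, the copies had 101 reads in the mean library, against 4.73 over all short L1 copies outside intervals, 19 over repeats of every family outside intervals and 356 over the intervals. The share of copies that reached the minimum differed with position more than with length. It was 9.24% within 1 kb of an interval, 5.85% at 1 to 10 kb, 2.22% at 10 to 100 kb and 0.345% at 100 kb or more. Across length classes it lay between 2.48% below 500 bases and 3.69% from 500 to below 1000 bases, although a longer copy has more room for reads. The median distance to an interval was 10920 bases.

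The 10 copies with the most reads lay on 8 chromosomes, and 5 of them were called in none of the comparisons. One on chromosome 3 (35868612 to 35872904, 4292 bases) had 1419.5 and 1842 scaled reads in KO, 1363 and 1125 in ΔcIDR and 1408 and 1378 in WT. One on chromosome 13 (97620094 to 97620333, 239 bases) had 1327 and 1244 in KO, 1279 and 1402 in ΔcIDR and 1455 and 1231 in WT. Neither passed the test in any comparison. Of the other 5 copies, 3 are given here, on chromosomes Y, 4 and 16, which were chosen after their values were seen. The copy on chromosome Y (90816868 to 90817215) had 1461 and 1417 scaled reads in KO, 435 and 407 in ΔcIDR and 1037 and 1117 in WT, with limma adjusted p-values of 7.5e-10 for ΔcIDR against KO and 2.1e-06 for ΔcIDR against WT. On chromosome 4 (85131894 to 85132830) the values were 1398 and 1296 in KO, 647 and 784 in ΔcIDR and 1027 and 879 in WT, and KO exceeded WT 1.41-fold (limma adjusted p = 0.024). On chromosome 16 (15937493 to 15940786) ΔcIDR stood above KO, with 1372 and 1201 in ΔcIDR against 746 and 961 in KO (1.51-fold, limma adjusted p = 0.0036).

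Taken over all copies and relative to other repeats, the L1 signal outside intervals was slightly lower in ΔcIDR and did not move in 1 direction in KO. The copies held 5.97% ± 0.02 of all repeat reads in ΔcIDR, 6.47% ± 0.12 in KO, and 6.43% ± 0.09 in the WT libraries (SD, n = 2 each). In ΔcIDR the share was −0.11 ± 0.01 (SE) from WT on the log2 scale, and in KO it was 0.01 ± 0.02 (SE) from WT. The median copy lay −0.088 ± 0.007 (SE) from WT in ΔcIDR, with library medians of −0.079 and −0.072 relative to the WT mean, against 0.009 ± 0.012 (SE) for all tested loci. Outside chromosomes 6, 8, 11 and Y, which were picked for the medians of the same copies, the median copy in ΔcIDR lay −0.066 ± 0.009 (SE) from WT. All tested loci there lay at 0.031 ± 0.012 (SE). In KO the median copy lay −0.002 ± 0.034 (SE) from WT, with library medians of 0.039 and −0.028. These directions depend on the centring. On the deposited scale the median copy lay 0.27 from WT in ΔcIDR and −0.31 in KO. With a scale set by ERCC spike-in reads it lay −0.38 from WT in ΔcIDR and 0.086 in KO. Medians carry no p, because an exact two-sided permutation test of 2 libraries against 2 cannot go below 0.3333.

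The small shift in ΔcIDR was set beside repeats of other families. Among 10 other families outside intervals the median change in ΔcIDR lay between −0.038 ± 0.045 (SE) for ERVL, an endogenous retrovirus, and 0.091 ± 0.020 (SE) for simple repeats. It was 0.044 ± 0.028 for SINE B1 (listed as SINE/Alu) and 0.036 ± 0.024 for SINE B2, short elements that use the L1 enzymes to copy themselves. The copies described here had the lowest median of these 11 groups when all were counted. With 1 copy taken from each run of neighbouring copies, the one with the most reads, their median was −0.032, which is above that of ERVL over all its loci. ERVL loci were not thinned in this way, and medians in ΔcIDR rose with reads (below). The comparison therefore does not show what neighbours do to the order. A change of scale moves all 11 groups alike, and the order itself was not tested with 2 libraries per group. Short L1 copies that overlap an interval lay at −0.10 ± 0.15 (SE) in ΔcIDR and L1 loci of at least 6000 bases at −0.20 ± 0.30 (SE), and in both lists the libraries within ΔcIDR, and those within WT, lay farther apart than ΔcIDR and WT did. The long loci had 0.074 and −0.454 in ΔcIDR, −0.033 and 0.356 in KO, and −0.136 and 0.136 in WT. The plot of medians by library shows a narrower spread for the truncated copies outside intervals, from −0.079 to 0.039, than for the other L1 lists. Other families outside intervals, from −0.012 to 0.053, and all tested loci, from −0.001 to 0.034, spread less.

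**Figure D1:**
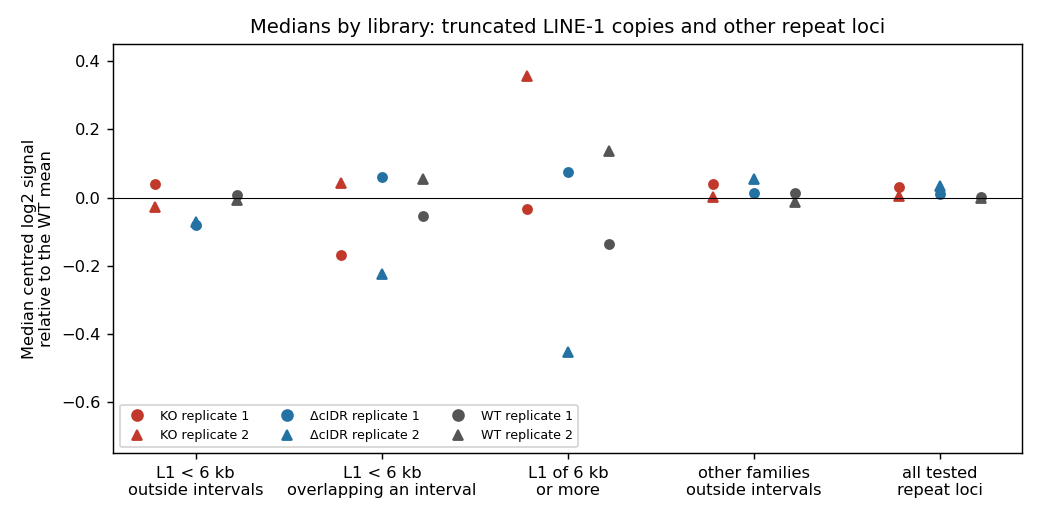
Median centred log2 signal of each library relative to the WT mean, for truncated L1 copies outside intervals and for 4 other sets of tested repeat loci; each point is 1 library, circles replicate 1 and triangles replicate 2. Both ΔcIDR libraries of the truncated copies outside intervals sit at −0.079 and −0.072, while L1 loci of 6 kb or more range from −0.454 to 0.356.

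The shift in ΔcIDR varied with level and length. Copies with at least 20 and below 50 reads had a median of −0.12 in ΔcIDR against WT, those with 50 to below 100 reads −0.072, those with 100 to below 500 reads −0.030 and the 106 copies with 500 or more 0.059. All tested loci with the same numbers of reads had −0.023, 0.015, 0.072 and 0.25, so they climbed with level as well and stood above the L1 copies in each class. By length the median was −0.062 below 500 bases, −0.10 from 500, −0.15 from 1000, −0.22 from 2000 and −0.22 from 4000 bases up to the limit of 6000. Only 1 library carried that trend. ΔcIDR replicate 2 had −0.019 below 500 bases and −0.40 from 4000 bases, whereas ΔcIDR replicate 1 had −0.078 and −0.084. By distance to an interval the medians lay between −0.064 within 1 kb and −0.097 at 1 to 10 kb.

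**Figure D2:**
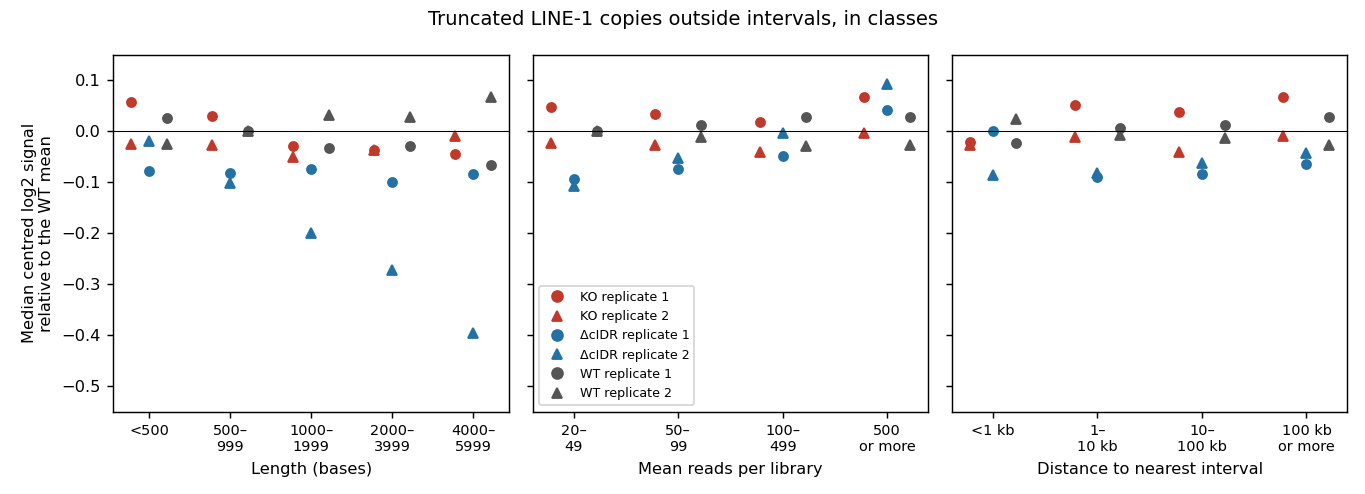
Median centred log2 signal per library relative to the WT mean, for truncated L1 copies in classes of length, of mean reads and of distance to the nearest interval; circles are replicate 1 and triangles replicate 2. The triangles of ΔcIDR drop from −0.019 to −0.40 with length and the circles stay between −0.074 and −0.099.

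Copies on chromosomes 6, 8 and Y lay more than 0.2 from WT in both libraries of each mutant, and chromosome 11, where this held in 1 KO library, was added after its values were seen. On chromosome 6 the 1434 copies had medians of 0.39 and 0.27 in KO, and of −0.24 and −0.21 in ΔcIDR, when set against the mean of both WT libraries. On chromosome 8 the 1183 copies had 0.37 and 0.30 in KO and −0.26 and −0.29 in ΔcIDR. Both chromosomes thus lay above WT in KO, by 0.32 ± 0.06 and 0.33 ± 0.04 (SE) or 1.25-fold on each, and below WT in ΔcIDR, by −0.25 ± 0.02 and −0.30 ± 0.03 (SE). On chromosome 11 the 1390 copies had 0.23 and 0.18 in KO, against −0.042 and −0.039 in the libraries of ΔcIDR. The other 16 autosomes and chromosome X lay between −0.154 and 0.048 in the 4 mutant libraries. On 3 scaffolds with 4, 3 and 2 copies the KO libraries had −0.40 and −0.50, −0.62 and −0.69, and −0.72 and −0.99. Summed over the copies of chromosome 8, scaled reads were 99682 and 95297 in KO, 65997 and 64409 in ΔcIDR and 77228 and 79005 in WT.

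The shift was not particular to L1. The 12480 other tested loci on chromosome 6 had a median of 0.36 in KO and −0.14 in ΔcIDR against WT, and the 13162 on chromosome 8 had 0.32 and −0.17. On chromosome 11 the 17253 other loci had 0.10 in KO and 0.043 in ΔcIDR.

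**Figure D3:**
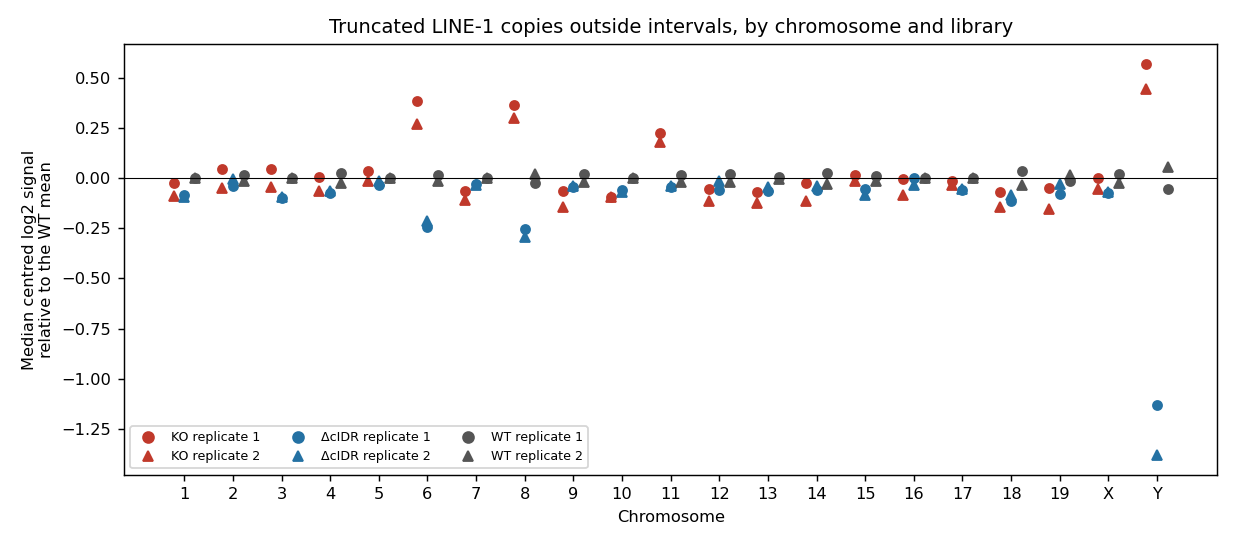
Median centred log2 signal per library relative to the WT mean, for truncated L1 copies outside intervals on each chromosome; circles are replicate 1 and triangles replicate 2. Chromosomes 6 and 8 sit between 0.27 and 0.39 in KO and between −0.29 and −0.21 in ΔcIDR, and the 17 copies of chromosome Y sit at −1.13 and −1.38 in ΔcIDR.

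Along chromosomes 6 and 8 the shift ran through most of the stretches examined, and along chromosome 11 in KO through a part of them. In bins of 10 Mb with at least 20 copies, both KO libraries lay more than 0.1 above WT in 14 of 15 bins of chromosome 6, 11 of 11 of chromosome 8, 6 of 13 of chromosome 11 and 22 of 217 bins elsewhere. Both ΔcIDR libraries lay more than 0.1 below WT in 11 of 15, 11 of 11, 1 of 13 and 35 of 217 bins. On chromosome 11 the bins between 10 and 60 Mb had medians of 0.37 to 0.56 in KO, and those between 60 and 80 Mb had 0.035 and 0.029. The annotation at hand, which is of another assembly, places Alkbh5 on chromosome 11 as well, and its position relative to these bins was not used here.

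**Figure D4:**
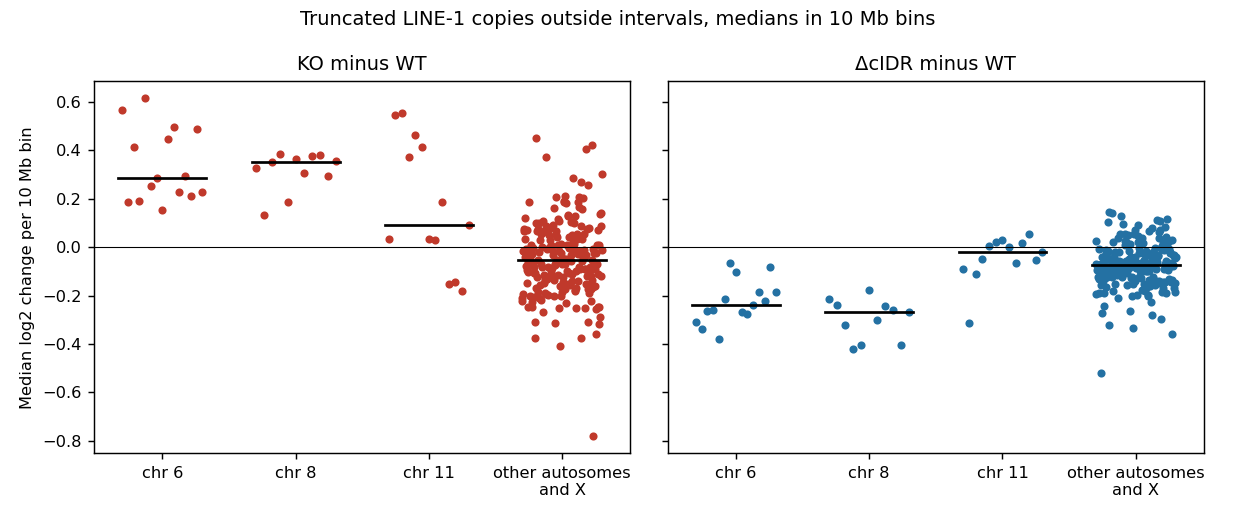
Median log2 change of truncated L1 copies in 10 Mb bins with at least 20 copies, KO minus WT on the left and ΔcIDR minus WT on the right; each point is 1 bin and black lines are medians of bins. In KO, bins of chromosome 11 range from −0.18 to 0.56, and every bin of chromosome 8 lies between 0.13 and 0.39.

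On chromosome Y, 16 of the 17 copies lay within 105.9 kb (90735042 to 90840989). Their scaled reads summed to 7359 and 6508 in KO, 2113 and 1846 in ΔcIDR and 4377 and 5032 in WT. Both ΔcIDR libraries lay below both WT libraries in 16 of the 17 copies, as in 18.1% of all tested loci, and both KO libraries lay above both WT libraries in 13, as in 26.2% of all tested loci. The 52 other tested repeat loci in the same stretch had a median of −1.37 in ΔcIDR against WT, and 27 of them were called lower. The single copy elsewhere on the chromosome (1024607 to 1024837) had 33.3 and 46.4 scaled reads in ΔcIDR against 31.6 and 16.4 in WT, so the ΔcIDR value was not lower there.

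KO against WT asks what loss of the demethylase does to these RNAs. Of the 23077 copies 617 were called higher and 1095 lower, 2.67% and 4.74%, where 3.15% and 4.22% of all tested loci were called. Among the higher calls 103 (16.7%) reached the minimum of mean reads through KO alone. Among the lower calls 18 (1.64%) reached it through 1 genotype alone, 14 in WT and 4 in ΔcIDR. Copies that reached it through KO or WT alone had to differ between these genotypes, which does not hold for the 4. All of them are also counted in the tallies by chromosome and run below. In either direction 7.42% of the copies and 7.37% of all loci were called, so the copies were called about as often as other repeats. On the deposited spike-in scale 56 copies were higher and 1002 lower (background 0.227% and 3.64%), and on a scale set by ERCC spike-in reads 845 and 791 (background 4.23% and 2.97%), so the balance between directions depends on the scale. The median over all loci in KO against WT was −0.29 and 0.098 on those scales. Single libraries mattered for the counts. Fits without 1 library are given here and below with no share over all tested loci. Their counts therefore do not set the copies apart from other repeats. Dropping KO replicate 1 left 537 of 1712 calls in number, dropping KO replicate 2 left 559 and dropping WT replicate 2 left 778, and a fit lacking WT replicate 1 called 409 higher and 590 lower. An unadjusted p under 0.05 was found for 4983 copies (21.6%), and for 21.6% of all tested loci.

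Gains in KO gathered on chromosomes 6, 8 and 11, for the copies as for other repeats. These chromosomes were picked for the medians of the same copies, so more gains there follow at least in part from that choice. That also holds for the values outside them. Chromosomes 6, 8 and 11 held 17.4% of the copies and 313 of the 617 higher calls (50.7%). There 7.81% of copies were called higher and elsewhere 1.59%, and of all tested loci 7.63% there and 2.03% elsewhere. Outside chromosomes 6, 8, 11 and Y the median copy lay −0.058 ± 0.032 (SE) from WT, with 300 higher and 1026 lower calls (1.57% and 5.38%). Of all tested loci there 2.02% were called higher and 4.80% lower, with a median of −0.045 ± 0.014 (SE).

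Calls also gathered in neighbourhoods. With gaps of up to 50 kb, the copies formed 5265 runs, 1825 of them a single copy and the largest of 108 copies, and 92.1% of copies had another within 50 kb. For copies called higher in KO, the next copy of the run lay above WT in 91.8% of cases, where 49.8% of all copies did, and for copies called lower the next lay below in 93.3%, where 50.2% did. Runs with at least 3 calls numbered 46 for gains, with 234 of the 617 calls, and 95 for losses, with 473 of the 1095. Runs were not counted for other repeats, so these numbers do not show that the gathering is particular to L1. Copies of a run share their surroundings and are not independent of each other. The tables name no genes, so the transcripts were not identified.

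The run with the most gains lay on chromosome 11 (12189569 to 12401528), where all 53 copies lay above WT and 23 were called. Scaled reads summed to 11649 and 10241 in KO, 5332 and 5639 in ΔcIDR and 7044 and 6679 in WT. KO was 1.59-fold WT there, and 38 of the 114 other tested repeat loci in the stretch were called higher as well. On chromosome 7 (142784800 to 142847668) 18 of 27 copies were called higher, and 8 of the 33 other tested loci in the stretch. That run had 7849 and 7510 in KO, 5314 and 5771 in ΔcIDR and 5252 and 4661 in WT, 1.55-fold more in KO than in WT. In ΔcIDR it averaged 5543 ± 323, against 4956 ± 418 in WT (SD, n = 2 each), and the nearest libraries had 5314 and 5252.

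Losses in KO included a run in which every copy was called. On chromosome 5 (104921553 to 105005444) all 14 copies were called lower, with sums of 299.6 and 292.3 in KO, 1550 and 1520 in ΔcIDR and 1349 and 1296 in WT. This run was 4.47-fold lower in KO than in WT, and 40 of the 43 other loci in the stretch were called lower. On chromosome X (102208082 to 102355208) 23 of 27 copies were called lower, with 900 and 924 in KO, 3101 and 3159 in ΔcIDR and 2088 and 2379 in WT. In that stretch 55 of the 67 other tested loci were called lower as well. A second run of that chromosome (106342633 to 106428985) fell in both mutants, with 683 and 702 in KO, 886 and 882 in ΔcIDR and 1766 and 1658 in WT. There 15 of 17 copies were called lower in KO and 3 in ΔcIDR, and of the 7 other tested loci 5 in KO and 2 in ΔcIDR. The largest of the named runs, on chromosome 17 (17173010 to 17589640), had 88 copies of which 16 were called lower, and its copies did not move alike, since 26 lay above WT. Its sums were 4916 and 4738 in KO, 6765 and 6537 in ΔcIDR and 6326 and 6141 in WT. Of the 107 other tested loci in its stretch 16 were called lower and 1 higher.

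**Figure D5:**
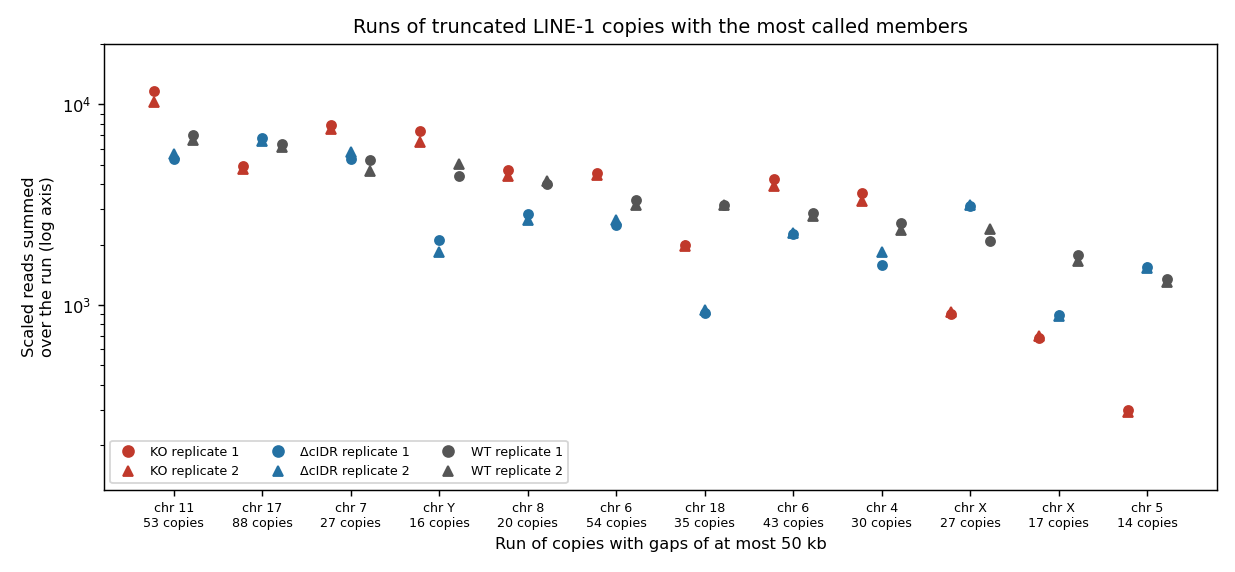
Scaled reads summed over the 12 named runs of truncated L1 copies, on a log axis, in order of the WT mean; each point is 1 library, circles replicate 1 and triangles replicate 2, and the number of copies stands under each run. The runs on chromosomes 5 and X (27 copies) are lowest in KO, at about 296 and 912 on average, and those on chromosomes 18 and Y are lowest in ΔcIDR, at 926 and 1980.

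The single copy with the largest gain in KO was among the 210 copies of at least 4000 bases. It lay on chromosome 3 (91051573 to 91055708, 4135 bases), 1253 bases from the nearest interval, and had 330.2 and 429.6 scaled reads in KO, 9.98 and 3.24 in ΔcIDR and 6.12 and 6.13 in WT. KO exceeded WT 62.0-fold on the means of scaled reads, with a log2 change of 5.76 ± 0.43 (SE, limma adjusted p = 3.8e-09), and the call held without each library in turn. All 8 named gains averaged under 20 reads in both other genotypes, so they reached the minimum through KO alone. Their folds, p-values and kept calls are therefore a description. The other 7 rested on fewer reads than this copy, and each lost its call without KO replicate 1 and without KO replicate 2. One of them on chromosome 6 (107869489 to 107870156) had 86.0 and 96.8 in KO, 2.22 and 0 in ΔcIDR and 2.04 and 2.04 in WT, with a log2 change of 4.99 ± 1.06 (SE) that was 5.08 and 4.90 without those libraries. Another on chromosome 5 (9222448 to 9222796) had 49.4 and 47.0 in KO, 7.77 and 8.64 in ΔcIDR and 4.08 and 8.18 in WT, and its change of 2.88 was 2.85 and 2.91 without them.

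All 8 named losses in KO kept their call without each library in turn. A copy on chromosome 1 (9016710 to 9017607) had 6.81 and 12.2 scaled reads in KO, 118.7 and 162.0 in ΔcIDR and 93.9 and 99.1 in WT, 10.1-fold lower in KO than in WT (limma adjusted p = 1.4e-07). A copy on chromosome 7 (34455071 to 34455346) had 4.26 and 5.64 in KO, 93.2 and 58.3 in ΔcIDR and 54.1 and 62.3 in WT, 11.8-fold lower in KO (limma adjusted p = 2.3e-06). On chromosome X (8736444 to 8737464) a copy had 0 reads in both KO libraries, 53.3 and 54.0 scaled reads in ΔcIDR and 19.4 and 16.4 in WT. Taking 3 reads over the group as the limit for a count of 0, it was at least 13.3-fold lower in KO than in WT (limma adjusted p = 8.8e-04). This copy reached the minimum of mean reads through ΔcIDR alone, which does not by itself make KO and WT differ. The copy on chromosome 8 (94173374 to 94177505) went against its chromosome, with 0 and 5.64 in KO, 41.0 and 32.4 in ΔcIDR and 28.6 and 26.6 in WT. The other 4 lay on chromosomes 3, 7 and 16 and had at most 5.11 scaled reads in a KO library.

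The comparison of ΔcIDR with WT concerns the part played by the disordered region of the enzyme. Few copies passed the test. Only 6 were called higher and 74 lower, 0.026% and 0.321%, where 0.119% and 0.138% of all tested loci were called, and 0.347% of copies and 0.257% of all loci passed in either direction. At an unadjusted p below 0.05 limma had 2488 copies (10.8%), and 10.7% of all tested loci. Under the deposited scale 4 were higher and 9 lower (background 0.0729% and 0.0217%), and on the ERCC scale 2 and 515 (background 0.0422% and 1.29%), where the median over all loci in ΔcIDR against WT was 0.36 and −0.28. Dropping WT replicate 1 left 30 calls and dropping WT replicate 2 left 29. With KO replicate 1 or KO replicate 2 dropped there were 50 and 52, as KO libraries enter through the pooled spread.

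Chromosome 18 held 27 of the 74 losses (36.5%) with 3.99% of the copies. There 2.93% of copies were called lower and elsewhere 0.212%, and of all tested loci 0.883% there and 0.114% elsewhere. A run there (50783079 to 50983605) had 35 copies, 23 called lower and all 35 below WT. Its scaled reads summed to 913 and 938 in ΔcIDR against 3152 and 3136 in WT, 3.40-fold lower, and to 1983 and 1970 in KO. In the same stretch 33 of 48 other tested repeat loci were called lower, and the deposited table holds 21 intervals. Over all 921 copies of chromosome 18 the ΔcIDR libraries had medians of −0.11 and −0.085. Chromosome Y held 8 more of the losses. A run on chromosome 8 (43523809 to 43641880) held 4, with sums of 2833 and 2653 in ΔcIDR against 3986 and 4132 in WT. That run had 20 copies, and 7 of the 80 other tested loci in its stretch were called lower. Where a copy called lower had a next copy in its run, that copy lay below WT in 98.4% of cases, where 59.0% of all copies did.

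The largest single losses in ΔcIDR that held without each library lay on chromosomes X, 18 and Y. The copy on chromosome X (168759079 to 168759468), 1944 bases from an interval, had 16.6 and 19.4 scaled reads in ΔcIDR against 107.2 and 112.4 in WT, 6.09-fold lower (limma adjusted p = 2.3e-06), and 159.1 and 126.9 in KO. A 5570-base copy in the chromosome 18 run (50829265 to 50834835) had 26.6 and 18.4 in ΔcIDR against 134.7 and 126.7 in WT (5.81-fold lower, limma adjusted p = 6.5e-06), with 72.3 and 67.7 in KO. On chromosome Y (90840911 to 90840989) the values were 64.3 and 52.9 in ΔcIDR against 251.1 and 236.1 in WT (4.15-fold lower, limma adjusted p = 1.2e-06). These 3 copies kept their call without each library, and the other 5 named losses lost it without 1 or more libraries, WT replicate 1 among them in each case. Of those, 1 on chromosome 18 (61158270 to 61158593) had 4.44 and 13.0 in ΔcIDR against 41.9 and 36.8 in WT, a change of −2.27 that was −1.56 without ΔcIDR replicate 1.

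The 6 gains in ΔcIDR were scattered over chromosomes 5, 12, 14 and 17. On chromosome 12 a copy 245 bases from an interval (19915507 to 19915912) had 533.6 and 495.7 scaled reads in ΔcIDR against 249.1 and 309.7 in WT, 1.84-fold higher (limma adjusted p = 0.016). The same copy was lower in KO than in WT, with 114.0 and 111.9 in KO (2.47-fold lower, limma adjusted p = 2.8e-05). On chromosome 5 (138351837 to 138352377) the values were 62.1 and 47.5 in ΔcIDR against 9.19 and 7.15 in WT (6.71-fold higher, limma adjusted p = 0.012). This copy averaged 20 reads or more in ΔcIDR alone, so its fold and p-value are a description. Each of the 6 lost its call without ΔcIDR replicate 1 and without ΔcIDR replicate 2, with changes on chromosome 12 of 0.83 and 0.94 and on chromosome 5 of 2.43 and 2.81.

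Both comparisons share the WT libraries, so calls made in both are given only as counts. Against WT, 12 copies were called lower in both mutants, 0 higher in both, 7 higher in KO and lower in ΔcIDR, and 2 lower in KO and higher in ΔcIDR. The same counts over all tested loci are not given here, so these do not show a trait of the copies.

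ΔcIDR against KO sets the mutants side by side. Here 1833 copies were called higher and 2347 lower in ΔcIDR, 7.94% and 10.2%, where 9.69% and 8.5% of all tested loci were called. In either direction 18.1% of copies and 18.2% of all loci passed. Among the lower calls 262 (11.2%) reached the minimum of mean reads through KO alone, and among the higher calls 30 (1.64%) through ΔcIDR alone. Such copies had to differ, and they are also counted in the tallies by chromosome and run below. The median copy lay −0.088 ± 0.033 (SE) from KO, and that of all tested loci −0.007 ± 0.018 (SE). Outside chromosomes 6, 8, 11 and Y the median copy lay −0.021 ± 0.031 (SE) from KO and the balance of calls turned round, with 1700 higher and 1298 lower (8.92% and 6.81%). Of all tested loci there 10.96% were higher and 5.54% lower, with a median of 0.066 ± 0.018 (SE). The chromosomes left out had been picked for the medians of the same copies, so the turn follows at least in part from that choice. On the deposited scale 5129 were higher and 258 lower (background 26.6% and 0.772%), and on the ERCC scale 800 and 6119 (background 3.92% and 23.1%), with medians over all loci of 0.65 and −0.38 on those scales. Of 4180 calls in number, 1672 were left on dropping KO replicate 1, 1801 on dropping KO replicate 2 and 2755 on dropping ΔcIDR replicate 1.

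Losses in ΔcIDR against KO gathered on chromosomes 6 and 8, which had been picked for the medians of the same copies. These held 812 of the 2347 lower calls (34.6%) with 11.3% of the copies, and 31.0% of their copies were called lower where 7.50% of the others were. Of all tested loci 26.4% were called lower there and 6.04% elsewhere, so the gathering was shared with other repeats. The median copy in ΔcIDR lay −0.56 ± 0.06 (SE) from KO on chromosome 6 and −0.63 ± 0.04 (SE) on chromosome 8. Runs with at least 3 calls numbered 172 for gains and 228 for losses, again without a count for other repeats. On chromosome 6 a run of 54 copies (84586218 to 85042257) had 27 called lower and summed to 2510 and 2659 in ΔcIDR against 4554 and 4460 in KO, with 3333 and 3154 in WT. Another of 43 copies (93700925 to 94098362) had 23 called lower, with 2250 and 2294 in ΔcIDR against 4247 and 3921 in KO and 2880 and 2762 in WT. In both, WT stood between the mutants. Of the other tested loci in these stretches 42 of 114 and 90 of 200 were called lower. The run on chromosome 11 had 44 of its 53 copies called lower, and 78 of the 114 other tested loci there. On chromosome 4 (85124947 to 85316490) 22 of 30 copies were called lower, with 1584 and 1829 in ΔcIDR against 3616 and 3279 in KO and 2549 and 2357 in WT. There 50 of the 77 other tested loci were called lower as well.

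Gains in ΔcIDR over KO included a run that was lower in KO than in WT, and single copies that KO had nearly lost. In the run of 27 copies on chromosome X (102208082 to 102355208), 26 were called higher in ΔcIDR than in KO and the sum was 3.43-fold higher. In that stretch 66 of the 67 other tested loci were called higher as well. The copy on chromosome X (8736444 to 8737464) without reads in KO was at least 39.9-fold higher in ΔcIDR (limma adjusted p = 7.2e-06), and against WT it had a 3.00-fold ratio that did not pass (limma adjusted p = 0.465). A copy on chromosome 16 (16628861 to 16630127) had 63.2 and 60.5 in ΔcIDR against 0 and 4.70 in KO, with 27.6 and 41.9 in WT. In the other direction a copy on chromosome 1 (173303893 to 173306352) had 0 reads in ΔcIDR against 67.2 and 80.8 scaled reads in KO, at least 45.1-fold lower (limma adjusted p = 1.4e-05), and 7.15 and 11.2 in WT. It averaged 20 reads or more in KO alone, and the copy on chromosome X did so in ΔcIDR alone, so the folds and p-values of both are a description. These 3 calls held without each library in turn, which adds no support for the copies on chromosomes 1 and X.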

How the data were processed

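Per the labels' protocols, RNA of the chromatin-associated fraction was depleted of ribosomal RNA, m6A spike-in RNA was added before fragmentation and m6A was immunoprecipitated. Per the submitters' processing notes the assembly is GRCm39 and the tools include HISAT2, featureCounts, MACS2, bedtools, fastp, Picard and SAMtools, with no role or version. Whether the intervals are peaks, and whether replicates were pooled for them, is not given in the sources used here. The deposited values are a spike-in-scaled signal, and dividing it by 1 factor per library gives whole reads (100% whole within 1e-06). Coordinates are as deposited, and whether a start counts from 0 or 1 is not stated.

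Reads were recovered as signal over the smallest nonzero value of the column, in numpy 2.4.6 and pandas 2.3.3 under Python 3.11.15. In R 4.3.3, limma 3.58.1 (lmFit, eBayes with trend) was fitted to centred log2(signal + 2) over 6 libraries and 234605 loci, with 1 mean per group, and p-values were adjusted after Benjamini and Hochberg. Folds of named copies are ratios of mean scaled reads. They are given only where both groups had more than 3 reads in total, or as a bound where a group had 0, and such limits cover counting error only. edgeR 4.0.16 on whole reads was an alternative, and the fit was tested on simulated data. Standard errors of medians come from medians per library. Intervals, runs and 10 Mb bins were handled in Python, and figures were drawn with matplotlib 3.10.9.

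Copies named are the 10 with the most reads and, per comparison and direction, up to 8 called copies with the largest change and no overlap of libraries, at most 1 in each run, with the 6 runs of most calls, the copies at the threshold and chromosomes over 0.2 from WT in both libraries of a mutant. A selection is printed, and chromosome 11 was added after its values were seen. The members, lists and tests were chosen with earlier results of these data known. No genome of the files' assembly was used, so no sequence, gene or subfamily is given.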

Additional observations from a re-analysis of the deposited data

Results flagged for a closer look

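Copies on 4 chromosomes were picked out because both KO libraries lay above both WT libraries and both ΔcIDR libraries lay below them, by medians over the copies. The median difference of ΔcIDR minus KO was −0.56 ± 0.06 (SE) on the log2 scale on chromosome 6, −0.63 ± 0.04 on chromosome 8, −0.27 ± 0.02 on chromosome 11 and −1.77 ± 0.14 on chromosome Y. On chromosome 11 the ΔcIDR libraries stood at −0.042 and −0.039 relative to the WT mean, against 0.017 and −0.017 in WT. The difference between the mutants' changes was not tested, since 2 libraries per group allow no exact p below 0.3333. Other repeat loci of chromosomes 6 and 8 had medians of −0.49 and −0.50 in ΔcIDR minus KO. On chromosome Y the value rests on 17 copies, 16 of them within 105.9 kb.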

How the results depend on the processing

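For KO against WT, ΔcIDR against WT and ΔcIDR against KO in that order, the 1712, 80 and 4180 calls became 561, 24 and 1897 with no filter on low values. Leaving out 1 library gave 537 to 1980, 29 to 100 and 1672 to 4311 calls. On the deposited scale there were 1058, 13 and 5387 calls, and on the ERCC scale 1636, 517 and 6919. At a minimum of 50 reads, which leaves fewer copies, they were 1163, 63 and 2385. Among the 12175 copies at least 10 kb from an interval they were 796, 30 and 2061, and with 1 copy in each of the 5265 runs 613, 25 and 1255, both sets holding fewer copies by construction. edgeR called 1983, 96 and 4347, sharing 1699, 80 and 4091 copies with limma. Other alternatives, except the crossed pairing given last, stayed within 1.5 times the counts. Apart from the deposited and ERCC scales, no share over all tested loci is given for these settings. A fall or rise in calls is therefore not set against that of other repeats.

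The median changes, −0.002, −0.088 and −0.088, were −0.31, 0.27 and 0.57 on the deposited scale and 0.086, −0.38 and −0.46 on the ERCC scale. Relative to all loci on the same scale (−0.29, 0.36 and 0.65, and 0.098, −0.28 and −0.38), the copies stayed lower. TMM factors gave −0.10 for ΔcIDR against WT, and a minimum of 50 reads −0.053 for ΔcIDR against KO. With 1 copy in each run the ΔcIDR medians were −0.032 against WT and −0.022 against KO. Leaving out 1 library gave −0.028 to 0.039, −0.11 to −0.072 and −0.14 to −0.068. The cause was not tested. The 38 changes of named copies kept their direction under the alternatives run on them, and 18 kept their call under each. Chromosome medians relative to all loci lay between 0.27 and 0.36 on chromosome 6 and 0.28 and 0.35 on chromosome 8 for KO against WT.

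With the replicate block there were 1342, 63 and 3677 calls. Same-numbered libraries deviated with r = 0.053 for KO and WT, −0.18 for ΔcIDR and WT and −0.068 for ΔcIDR and KO over all tested loci, so the numbers were not taken to pair them. Because of the value under −0.1, crossed pairing with the ΔcIDR numbers exchanged was tried after seeing the data, and it gave 2629, 293 and 5274 calls. Depth limits the lowest copies, of which 14558 had fewer than 50 reads.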
